A study of Homo sapiens with 6 samples.

Results

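The protein-coding genes of a stretch on the long arm of chromosome 11, in gene order from CPT1A to RAB30, were compared between RH30-IκBα SR cells and RH30 vector cells. Of 118 such genes in the RefSeq gene table, 107 had a feature of their own on the array, out of 22411 named genes in all, and these 107 are the members. The ends of the stretch were chosen by the fold changes between the same arrays, so every difference between SR and vector cells inside it is a description and none is given as a test. RH30 is an established human alveolar rhabdomyosarcoma line grown in serum-containing medium. RNA came from RH30 cells infected with empty vector (3 arrays) and from RH30 cells infected with the IκBα super repressor, SR (3 arrays), a form of IκBα that is not degraded and holds classical NF-κB in the cytoplasm. The cells were stable retroviral lines, and the labels give replicate numbers without naming clones or separate cultures, so the spread between arrays may be technical. Log2 levels of NFKBIA, the gene that the SR transgene carries, were 11.61, 11.66 and 11.58 in vector and 13.55, 13.74 and 13.57 in SR cells. Of 8 myogenic markers, 7 had group means above 9 in both groups, and their levels differed between the groups: MYOG was lower in SR cells (12.25 in vector and 11.09 in SR), while DES (14.71 and 15.71), MYOD1 (12.65 and 13.27), CHRNA1, CDH15, FGFR4 and ACTC1 were higher, by 0.19 to 1.00. Their part in the results was not tested. The eighth, MYF6, lay near background (3.75 and 3.70). The 3 markers of leukocytes and the 3 of endothelium that were measured had means from 3.56 to 4.45 in both groups, and 3 of the 4 epithelial markers from 3.89 to 4.03. The remaining one, CLDN4, was 5.79 and 5.82.

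The region contains genes of many different functions, along with neighboring genes of the same family. It holds an adaptor of death receptors (FADD), a regulator of cortical actin (CTTN), uncoupling proteins of the mitochondrial inner membrane (UCP2 and UCP3), a Golgi GTPase (RAB6A), a subunit of DNA polymerase delta (POLD3) and a chromatin remodeling factor (RSF1). In several carcinomas parts of this region are known to be present in extra copies, and FADD, CTTN, PPFIA1, EMSY and RSF1 are among the genes studied there. RNA levels on the array are log2 values after robust multichip averaging (RMA), so a difference of 1 is a 2-fold change on that scale.

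Most genes of the stretch that the cells transcribed at a level above the median gene had more RNA in SR cells. The level of a gene was its mean over all 6 arrays, and 65 members lay at or above the median gene (5.13, called bright here) while 42 lay below it (dim). Over all 107 members the median log2 fold change was 0.34, with quartiles of 0.01 and 1.63, whereas the median over all 22411 genes was 0.00. By limma at an adjusted p under 0.05, 58 members were higher in SR cells, 1 was lower and 48 did not pass, while 9.76% of all genes were higher and 8.58% were lower. Of the 65 bright members 54 were higher and none lower, while 18.7% of all bright genes were higher and 15.4% were lower. A 2-fold or larger increase was found in 40 members, and in 1.37% of all genes. In 62 members every SR array lay above every vector array, as it did in 15.2% of all genes. In 3 members every SR array lay below, and in 42 the groups overlapped. The rule used this contrast, so nothing is read from these shares.

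**Figure D1:**
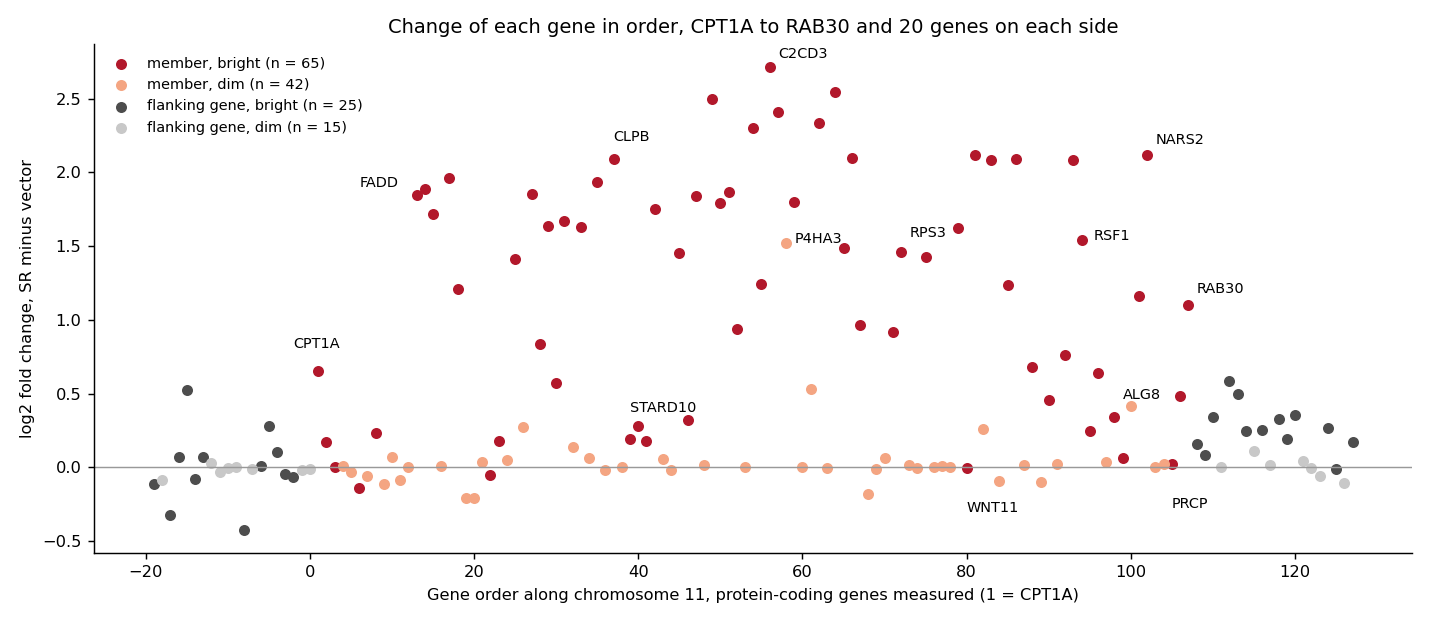
Each point is 1 protein-coding gene, placed by its order along chromosome 11 (x axis, CPT1A = 1) and by its log2 fold change, SR minus vector (y axis, means of 3 arrays each). Red points are bright members, pale points dim members, and gray points the 20 measured genes on each side. Bright members from FADD to RSF1 had a median of 1.63, and dim members a median of 0.00.

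The 3 SR arrays agreed closely. Taking each array's median difference from the vector mean over the 65 bright members, the SR arrays stood at 1.43, 1.36 and 1.41 and the vector arrays at -0.03, 0.03 and 0.00. Over all genes each of the 6 arrays stood at 0.00. The SD within a group, as the median over bright members, was 0.09 in vector cells and 0.06 in SR cells, against 0.07 and 0.05 for all bright genes. Whether RNA rose in every cell, or more strongly in part of the cells, cannot be told apart in RNA from whole cultures.

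**Figure D2:**
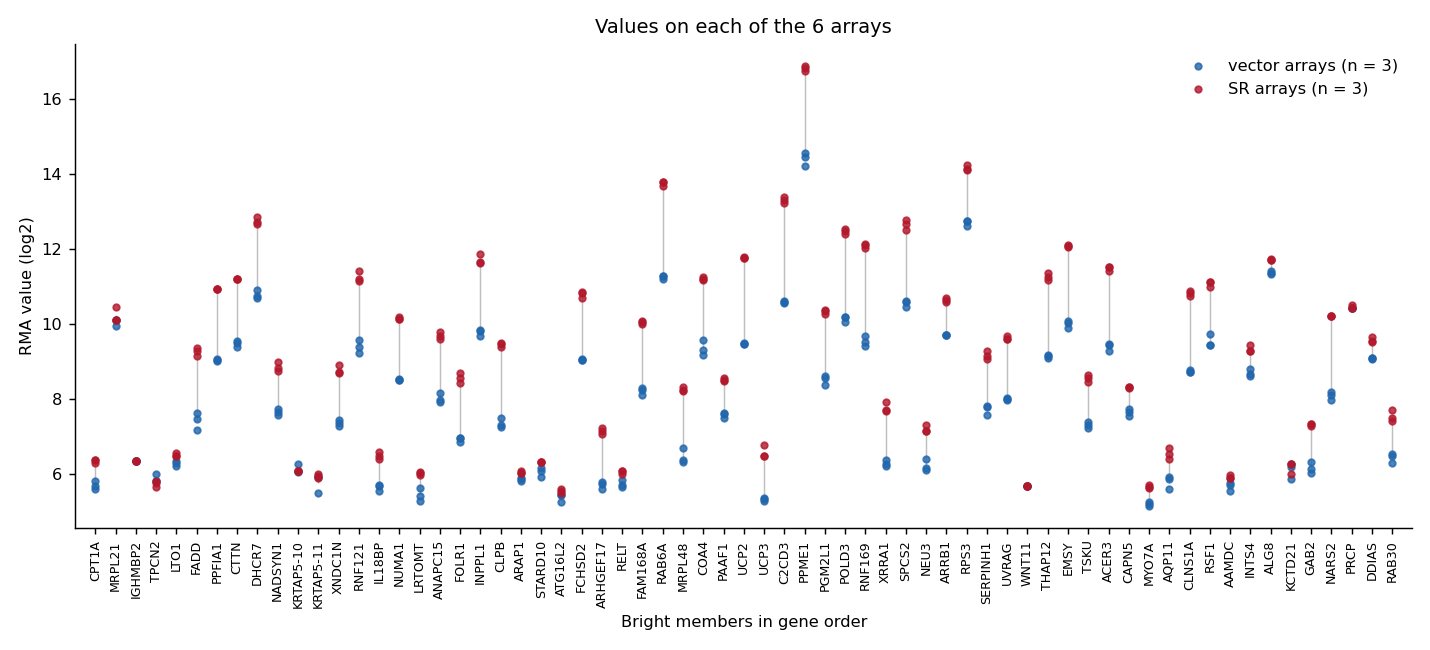
Each column is 1 of the 65 bright members in gene order and each point 1 array (log2 RMA value), blue for vector and red for SR, with a gray line joining the group means. The groups are apart in 57 members, and the exceptions include MRPL21, IGHMBP2, TPCN2, WNT11, KCTD21 and PRCP.

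The change was not even along the gene order. CPT1A, which encodes the enzyme that loads fatty acids onto carnitine for mitochondrial import, was 5.68, 5.82 and 5.60 in vector and 6.32, 6.37 and 6.37 in SR cells, a log2 fold change of 0.66 (standard error 0.06). The next bright members after it changed little. MRPL21, a protein of the large mitochondrial ribosomal subunit, was 9.95, 10.13 and 10.13 in vector and 10.13, 10.46 and 10.13 in SR cells. The helicase gene IGHMBP2 was 6.36, 6.35 and 6.35 in vector and 6.36, 6.36 and 6.36 in SR cells. In neither gene were the groups apart. LTO1, a factor of iron-sulfur protein and ribosome maturation, was 6.23, 6.31 and 6.35 against 6.50, 6.58 and 6.50, and its SR arrays all lay above its vector arrays by a small margin (0.23). Then came FADD, the adaptor that joins death receptors to caspase-8, at 7.18, 7.63 and 7.47 in vector and 9.16, 9.38 and 9.29 in SR cells (log2 fold change 1.85, standard error 0.14). Between LTO1 and FADD, adjacent bright members, the change thus went from 0.23 to 1.85.

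From FADD to RSF1, 48 of 51 bright members had every SR array above every vector array, with a median of 1.63 and quartiles of 0.93 and 1.95. The highest values were grouped in the middle. The 13 bright members from RAB6A to SPCS2 had a median of 2.10 and a lowest value of 0.94 (PAAF1, a proteasome regulator), and 7 of them were higher by at least 4-fold. On the other side of RSF1 the values were lower again. The 9 bright members from AAMDC to RAB30 had a median of 0.49, and neighbors differed widely: GAB2, a signaling adaptor, had 1.16 and NARS2, the mitochondrial asparaginyl-tRNA synthetase, 2.12, but PRCP, the next bright gene after NARS2, had 0.02. These divisions were set after the values were seen. PRCP was listed at 10.44 on every vector array and on SR replicates 1 and 3. What this repeated value means for the step after NARS2 was not tested.

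Outside the ends, the 5 nearest measured genes before CPT1A had log2 fold changes from -0.07 (PPP6R3) to 0.10 (C11orf24). RAB30, a small GTPase of the Golgi, was the last member, at 6.55, 6.31 and 6.48 in vector and 7.72, 7.43 and 7.50 in SR cells (log2 fold change 1.10, standard error 0.11). The genes after it were PCF11 at 0.16, ANKRD42 at 0.08, CCDC90B at 0.34, DLG2 at 0.00 and TMEM126B at 0.59. The 1049 protein-coding genes measured elsewhere on chromosome 11 had a median of 0.00, and 11 of them were higher by at least 2-fold.

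Among all members the largest increases were in C2CD3, RNF169 and RAB6A. C2CD3, a centriole protein needed for centriole elongation and cilia, was 10.64, 10.58 and 10.61 in vector and 13.41, 13.23 and 13.32 in SR cells, or 6.56-fold (log2 fold change 2.71, standard error 0.05). RNF169, a ubiquitin-binding protein that gathers at DNA breaks, was 9.52, 9.70 and 9.42 in vector and 12.13, 12.03 and 12.10 in SR cells (2.54, standard error 0.08). RAB6A, which directs vesicles at the Golgi, was 11.21, 11.29 and 11.30 in vector and 13.80, 13.70 and 13.79 in SR cells (2.50, standard error 0.04). In each of these genes every SR array lay more than 2 above every vector array on the log2 scale.

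The promoters of these genes are shown next to promoters of bright members with almost no change. Whether promoter sequence had a part in the changes was not tested. They are RefSeq promoters of build GRCh38.p14, 300 bases around the gene's start, and 72 of the 107 members have one in the table. Both strands were searched for GGGCGG (the GC box, bound by SP1), CCAAT (the CCAAT box), TATAAA (the TATA box) and the κB consensus to which NF-κB dimers bind. Capitals mark the matches, which on the opposite strand read as the reverse complement. The highest members come first, at chr11:74170953-74171252 (- strand), chr11:74748599-74748898 (+ strand) and chr11:73761025-73761324 (- strand).
C2CD3: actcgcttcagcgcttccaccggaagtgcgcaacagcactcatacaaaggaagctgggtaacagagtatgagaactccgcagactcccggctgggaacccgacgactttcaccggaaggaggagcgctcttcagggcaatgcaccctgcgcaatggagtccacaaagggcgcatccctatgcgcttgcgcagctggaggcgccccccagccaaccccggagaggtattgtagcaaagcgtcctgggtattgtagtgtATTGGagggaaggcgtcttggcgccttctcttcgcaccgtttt
RNF169: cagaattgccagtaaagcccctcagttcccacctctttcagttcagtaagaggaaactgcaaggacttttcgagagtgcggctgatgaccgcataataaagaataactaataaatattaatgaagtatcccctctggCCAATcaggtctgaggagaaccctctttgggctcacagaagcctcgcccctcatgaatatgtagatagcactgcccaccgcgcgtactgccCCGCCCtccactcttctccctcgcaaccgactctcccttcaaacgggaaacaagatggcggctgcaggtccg
RAB6A: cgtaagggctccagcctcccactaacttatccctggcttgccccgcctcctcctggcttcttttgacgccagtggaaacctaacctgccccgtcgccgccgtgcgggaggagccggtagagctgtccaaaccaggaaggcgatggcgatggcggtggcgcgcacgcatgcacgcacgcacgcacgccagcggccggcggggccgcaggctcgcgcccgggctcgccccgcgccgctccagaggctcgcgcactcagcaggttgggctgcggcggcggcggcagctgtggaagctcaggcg

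C2CD3 and RNF169 each have 1 CCAAT match, RNF169 also has 1 GC box match, and RAB6A has none of the 4 motifs. WNT11 and IGHMBP2 were the bright members with the smallest change. The next in that order with an entry were PRCP, at chr11:82901595-82901894 (- strand), and KCTD21, at chr11:78188577-78188876 (- strand).
PRCP: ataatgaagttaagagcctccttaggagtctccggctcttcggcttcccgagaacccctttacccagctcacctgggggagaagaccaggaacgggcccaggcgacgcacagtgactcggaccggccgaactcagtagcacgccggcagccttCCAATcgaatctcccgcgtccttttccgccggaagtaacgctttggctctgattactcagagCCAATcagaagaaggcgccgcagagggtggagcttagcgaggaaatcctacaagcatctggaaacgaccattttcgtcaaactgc
KCTD21: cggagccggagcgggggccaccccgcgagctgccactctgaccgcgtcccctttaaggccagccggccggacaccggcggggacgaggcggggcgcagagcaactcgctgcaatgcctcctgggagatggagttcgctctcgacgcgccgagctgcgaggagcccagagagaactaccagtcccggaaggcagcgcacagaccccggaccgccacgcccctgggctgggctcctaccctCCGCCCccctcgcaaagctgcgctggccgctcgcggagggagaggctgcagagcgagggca

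PRCP has 2 CCAAT matches and KCTD21 has 1 GC box match. A κB consensus match lay in 6 of 72 member promoters (8.33%), and in 5.72% of the 27305 promoters in the table. The 6 were MRGPRD, TPCN2, ATG16L2, FCHSD2, SERPINH1 and CLNS1A, with log2 fold changes of 0.01, -0.14, 0.18, 1.75, 1.43 and 2.08. A member that was higher and one that was not are shown with their κB matches, FCHSD2 at chr11:73142269-73142568 (- strand) and TPCN2 at chr11:69048682-69048981 (+ strand).
FCHSD2: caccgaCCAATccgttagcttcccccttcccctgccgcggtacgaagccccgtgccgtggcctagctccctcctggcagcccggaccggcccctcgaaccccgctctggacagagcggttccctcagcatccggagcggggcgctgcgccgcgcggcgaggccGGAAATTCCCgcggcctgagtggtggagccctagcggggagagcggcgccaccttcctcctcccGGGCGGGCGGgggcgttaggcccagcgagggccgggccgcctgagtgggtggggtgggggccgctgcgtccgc
TPCN2: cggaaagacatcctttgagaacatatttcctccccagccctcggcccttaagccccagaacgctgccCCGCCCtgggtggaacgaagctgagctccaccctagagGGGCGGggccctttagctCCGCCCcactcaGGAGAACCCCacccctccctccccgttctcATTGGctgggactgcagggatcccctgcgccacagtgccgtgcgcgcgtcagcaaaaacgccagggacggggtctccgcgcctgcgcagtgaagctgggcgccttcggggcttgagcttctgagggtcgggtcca

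GC box matches were found in 62.5% of member promoters and in 44.6% of all promoters, and CCAAT matches in 41.7% and 35.7%. TATA box matches were found in 4.17% and 12%. The median ratio of observed to expected CpG was 0.821 in member promoters and 0.58 in all, and it was 0.846 in bright members and 0.575 in dim members (50 and 22 promoters). The background is every promoter in the table, whereas the members are all protein-coding and 50 of the 72 with an entry are bright. Promoters of genes of like type and level were not compared. Nothing is therefore read about the stretch from these shares or from the κB share. A match is a run of letters and not a measured binding site.

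Members that act in mitochondria and metabolism numbered 23, of which 13 were called higher and none lower. The counts by role, here and below, describe members chosen on this contrast and are not a result about any role. Over all genes 9.76% were called higher and 8.58% lower, and over all bright genes 18.7% and 15.4%. UCP2, a carrier of the inner membrane, was 9.47, 9.50 and 9.48 in vector and 11.78, 11.80 and 11.78 in SR cells, or 4.93-fold (log2 fold change 2.30, standard error 0.01). Its neighbor UCP3, the related carrier best known from skeletal muscle, was 5.29, 5.37 and 5.36 in vector and 6.77, 6.48 and 6.50 in SR cells (1.24, standard error 0.09). Both genes had groups that did not overlap, UCP3 from a level close to the median gene. MRPL48, of the large mitochondrial ribosomal subunit, was 6.37, 6.71 and 6.33 against 8.32, 8.22 and 8.24 (1.79, standard error 0.12). NARS2 was 8.11, 8.19 and 7.99 in vector and 10.21 in every SR array. ACER3, an alkaline ceramidase, was 9.47, 9.45 and 9.30 against 11.54, 11.42 and 11.54. The SR values of all these genes lay above every vector value. The disaggregase gene CLPB (2.09), DHCR7, the enzyme of the last step of cholesterol synthesis (1.96), COA4, an assembly factor of cytochrome c oxidase (1.87), PGM2L1, which makes glucose-1,6-bisphosphate (1.80), and the NAD synthetase gene NADSYN1 (1.21) had likewise separate groups. The ganglioside sialidase gene NEU3 had 0.97. STARD10, a lipid transfer protein, had 0.28 and did not pass.

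Signaling and cell death genes numbered 17, of which 8 were called higher and 1, FGF19, lower. PPME1, which removes the methyl group of protein phosphatase 2A, was 14.58, 14.48 and 14.22 in vector and 16.84, 16.77 and 16.89 in SR cells (2.41, standard error 0.11). It was the only member whose SR mean exceeded 16, the log2 of the largest reading of a 16-bit scanner, and whether such readings are compressed was not tested. INPPL1, a phosphatase of inositol lipids, had 1.93, the secreted protein TSKU 1.24, GAB2 1.16, the arrestin gene ARRB1 0.92 and IL18BP, a secreted inhibitor of interleukin-18, 0.84. RELT, a receptor of the TNF receptor family, was much less changed than FADD, at 5.84, 5.72 and 5.66 in vector and 6.02, 6.09 and 6.08 in SR cells (0.32, standard error 0.06). FGF19 was near background, at 3.34, 3.35 and 3.35 against 3.22, 3.23 and 3.23, and its call was lost after further normalization or centering. The ligand genes FGF3 and FGF4 were also dim, with log2 fold changes of -0.09 and 0.07.

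Genes of membrane traffic and autophagy numbered 10, all bright, of which 7 were called higher and none lower. SPCS2, a subunit of the signal peptidase that trims secreted proteins, was 10.48, 10.63 and 10.59 in vector and 12.79, 12.51 and 12.68 in SR cells (2.10, standard error 0.09). PPFIA1, the scaffold liprin-α1, was 9.03, 9.09 and 9.06 in vector and 10.95 in every SR array (1.89). FCHSD2, a membrane-bending regulator of endocytosis, had 1.75, and UVRAG, which acts in autophagy and endosome maturation, had 1.62. In all of these the SR arrays lay well above the vector arrays. At the other end were the Arf GTPase regulator ARAP1 (0.19), the autophagy gene ATG16L2 (0.18), the endolysosomal channel gene TPCN2 (-0.14) and the lysosomal carboxypeptidase gene PRCP (0.02).

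Genes of DNA, RNA and nuclear functions numbered 17, with 15 called higher, none lower and 2, IGHMBP2 and the dim homeobox gene PHOX2A, not passing. POLD3, a subunit of the replicative DNA polymerase delta, was 10.07, 10.18 and 10.19 in vector and 12.55, 12.49 and 12.42 in SR cells (2.34, standard error 0.05). THAP12, a zinc finger protein, was 9.11, 9.20 and 9.15 against 11.19, 11.26 and 11.37 (2.12, standard error 0.05). CLNS1A, a chaperone of spliceosomal particle assembly, was 8.72, 8.73 and 8.79 against 10.90, 10.77 and 10.83 (2.08, standard error 0.04). All 3 genes were more than 4-fold higher. EMSY, a partner of BRCA2, had 2.08, the membrane ubiquitin ligase gene RNF121 1.86 and NUMA1, which organizes spindle poles, 1.64. ANAPC15, of the anaphase-promoting complex, was 7.92, 7.99 and 8.17 in vector and 9.69, 9.61 and 9.80 in SR cells (1.67, standard error 0.09). RSF1, the histone-binding subunit of the RSF remodeler, was 9.45, 9.46 and 9.73 in vector and 11.13, 11 and 11.13 in SR cells (1.54, standard error 0.09). RPS3, a protein of the small ribosomal subunit, was 12.63, 12.75 and 12.75 against 14.12, 14.16 and 14.24 (1.46, standard error 0.05). INTS4, a subunit of the Integrator complex, was 8.63, 8.80 and 8.69 against 9.44, 9.30 and 9.29 (0.64, standard error 0.07). INTS4 thus had separate groups but a smaller change than its near neighbors RSF1 and CLNS1A.

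Of 10 cytoskeleton and matrix genes, 7 were called higher and none lower. CTTN, which encodes cortactin, a stabilizer of branched actin, was 9.40, 9.49 and 9.56 in vector and 11.20 in every SR array (log2 fold change 1.72, standard error 0.04). SERPINH1, the collagen chaperone HSP47, was 7.60, 7.81 and 7.80 against 9.07, 9.28 and 9.15 (1.43, standard error 0.09). Lower down were the calpain CAPN5 (0.68) and the unconventional myosin MYO7A (0.45). P4HA3, an alpha subunit of the collagen prolyl 4-hydroxylase, was the one dim member with a large change. Its brighter feature was 4.05, 4.66 and 3.74 in vector and 5.70, 5.53 and 5.78 in SR cells (1.52, standard error 0.26), while its other feature was listed at 4.12 on all 6 arrays, and the mean of both gave 0.76.

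Channels, receptors and transporters numbered 10, of which 3 were called higher and none lower. FOLR1, the folate receptor alpha, was 6.85, 6.98 and 6.98 in vector and 8.44, 8.56 and 8.70 in SR cells (1.63, standard error 0.08). The adjacent folate receptor genes FOLR3 and FOLR2 were dim, at vector means of 3.94 and 4.15, and had changes of 0.14 and 0.06. The small change of FOLR3, at a level near background, is 1 of the 3 called higher. The water channel AQP11 had 0.76. ANO1, a calcium-activated chloride channel, and KCNE3, a potassium channel subunit, had the same value on all 6 arrays (3.45 and 3.79). Of 20 members with other or less settled roles, 5 were called higher, with the largest changes in FAM168A (1.84) and XNDC1N (1.41).

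Bright members with a log2 fold change under 0.3 numbered 13. Apart from MRPL21 and PRCP, their vector means lay from 5.38 (ATG16L2) to 6.35 (IGHMBP2), against 5.13 for the median gene. Bright members with larger changes also lay in that range, such as ARHGEF17 (5.71, change 1.45) and XRRA1 (6.29, change 1.49). TPCN2 was 5.83, 5.83 and 6.02 in vector and 5.78, 5.66 and 5.83 in SR cells. WNT11, a Wnt ligand, was 5.69 in every vector array and 5.69, 5.68 and 5.69 in SR cells. KCTD21, an adaptor of a ubiquitin ligase, was 6.20, 6.28 and 5.89 against 6.00, 6.28 and 6.28. In these genes the groups overlapped. The keratin-associated protein genes KRTAP5-10 and KRTAP5-11, members of a family of near copies whose features may share signal, had -0.05 and 0.18. KRTAP5-10 was 6.06, 6.08 and 6.27 in vector and 6.08 in every SR array, and KRTAP5-11 was 5.92, 5.92 and 5.50 against 5.96, 5.90 and 6.02, so that both overlapped. STARD10 was 6.17, 6.08 and 5.92 in vector and 6.33 in every SR array. ARAP1 was 5.90, 5.88 and 5.82 against 6.04, 6.10 and 6.04, and ATG16L2 was 5.44, 5.26 and 5.45 against 5.51, 5.56 and 5.61. These 3 follow each other between CLPB (2.09) and FCHSD2 (1.75), and in each the SR arrays lay above the vector arrays. AAMDC was 5.71, 5.78 and 5.56 against 5.99, 5.90 and 5.90. Of the 13, only MRPL21 and PRCP had a mean above 10 in vector cells. PRCP was listed at 10.44 in every vector array and at 10.44, 10.51 and 10.44 in SR cells. ALG8, a glucosyltransferase of N-glycan synthesis just over the limit of 0.3, was 11.35, 11.41 and 11.37 in vector and 11.71, 11.71 and 11.73 in SR cells (0.34, standard error 0.02).

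The change went with the level in vector cells. Of 41 members below 5 in vector arrays, 1 was higher by at least 2-fold, and the median was 0.01. The median was 0.32 for 15 members between 5 and 6, 1.16 for 19 members between 6 and 8, 1.84 for 21 between 8 and 10, and 2.08 for 11 above 10. Across the 65 bright members, Pearson's r between the vector level and the change was 0.58 and Spearman's rank correlation was 0.61. This is a relation across genes, which are not independent replicates, and the vector level enters both measures. Gene length had a weaker relation with the change (Spearman's rank correlation 0.28). Background signal takes a larger share of dim values, and its part in the relation was not tested.

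**Figure D3:**
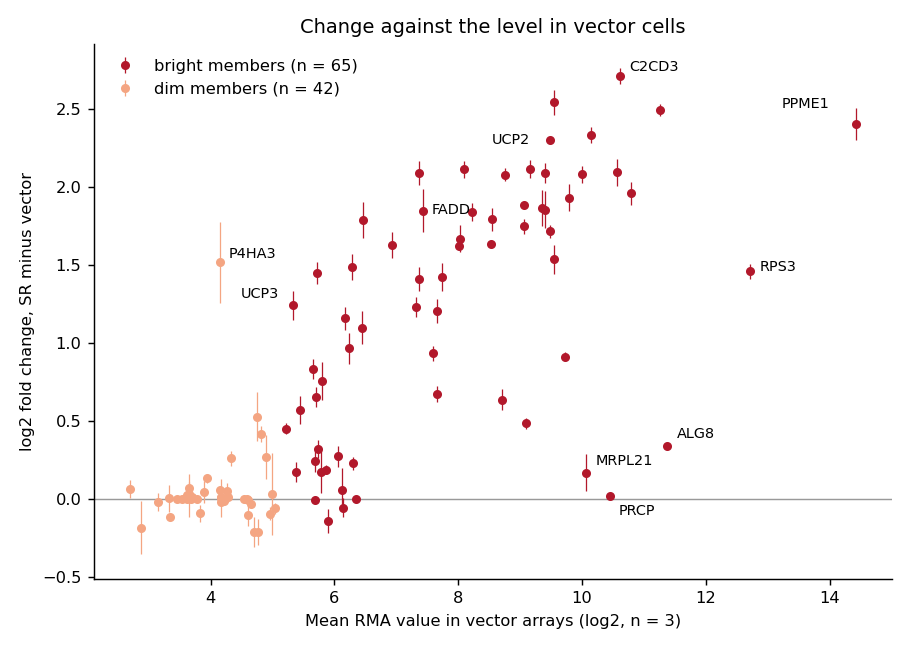
Each point is 1 of the 107 members, with the mean vector level (x axis, log2, 3 arrays) against the log2 fold change, SR minus vector (y axis, bars are limma standard errors). Dim members (pale) lie below 0.3 apart from P4HA3 (1.52), LIPT2 (0.53) and USP35 (0.42), and among members above 10 in vector cells only MRPL21, PRCP and ALG8 changed by less than 1.

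Measured genes between CPT1A and RAB30 without a protein product numbered 32, with a median log2 fold change of 0.05. Of these, 4 were called higher (12.5%, against 9.76% of all genes). All 4 were among the 13 bright ones (30.8%, against 18.7% of all bright genes), whose median was 0.44. SNORD15A and SNORD15B, small nucleolar RNAs that lie in introns of RPS3, were the most changed. SNORD15A was 7.83, 7.62 and 7.92 in vector and 9.86, 9.72 and 9.99 in SR cells (log2 fold change 2.07), and SNORD15B was 13.12, 13.04 and 13.59 against 15.07, 15.02 and 15.19 (1.84). Both were thus raised along with their host, which had 1.46. The feature of MIR548K, which lies within PPFIA1, was 6.57, 6.81 and 6.78 against 7.96, 7.49 and 7.62 (0.97), and whether it reads the precursor or the host transcript was not tested. RSF1-IT1, an intronic transcript of RSF1, had 0.26.

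Partner genes were examined to see whether products that work with a member changed as the member did. The stretch was chosen on this contrast, so each comparison of a member with its partners is a description. For 13 complexes or steps with a measured member, and for the Ragulator and respiratory complex I, whose genes in the stretch were not analysed here, 187 partner genes were listed and 165 measured, 12 of them elsewhere on chromosome 11. The median log2 fold change of the partners was 0.00, with 17 higher (10.3%), 23 lower (13.9%) and 125 not past an adjusted p of 0.05 from limma. Of the 158 bright partners 17 were higher (10.8%) and 21 lower (13.3%), both shares below those of all bright genes (18.7% and 15.4%). The count of 17 higher was less stable than the others, at 10 without vector replicate 3, 10 without SR replicate 2, 8 without SR replicate 3 and 9 with the replicate number as a block.

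In the large mitochondrial ribosomal subunit 6 of 45 partners of MRPL21 and MRPL48 were higher and 2 lower, with MRPL32 at 0.53 (adjusted p = 0.0028 from limma), MRPL44 at 0.66, MRPL33 at -0.32 and MRPL36 at -0.36. Of 19 small ribosomal subunit genes beside RPS3, 1 was higher (RPS12, 0.24) and 3 were lower, RPS7 at -0.91 (adjusted p = 0.00015 from limma), RPS19 at -0.46 and RPS16 at -0.38. Among 12 genes of the anaphase-promoting complex, CDC26 was higher (0.48), and ANAPC4 (-0.58) and CDC16 (-0.40) were lower. In Integrator 3 of 13 were higher and 3 lower, among them INTS14 at 0.62, INTS12 at 0.09, INTS6 at -0.30 and INTS1 at -0.34. DNA polymerase delta had POLD2 higher (0.77), POLD1 lower (-0.23) and POLD4 at -0.46, which did not pass. The signal peptidase had SEC11A higher (0.47) and SPCS3 lower (-0.69). In these complexes no measured partner had a log2 fold change as high as MRPL48, RPS3, ANAPC15, POLD3 or SPCS2, respectively. The way the stretch was chosen favors this order, so nothing is read from it. INTS14 (0.62) lay next to INTS4 (0.64). MRPL21 (0.17) was exceeded by several partners, among them MRPL44, MRPL32 and MRPL50 (0.44).

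FADD works with death receptors and caspases, of which 6 were measured, none higher, and FAS (-0.25) and CASP10 (-0.25) lower at levels below the median gene. Beside CTTN, 8 genes of the Arp2/3 complex and its activator N-WASP had none higher and 2 lower, WASL (-0.53, adjusted p = 0.0012 from limma) and ARPC1A (-0.20). The 4 carnitine shuttle genes beside CPT1A lay between -0.04 and 0.03 and none passed. Of the prolyl 4-hydroxylase genes beside P4HA3, P4HB (-0.77, adjusted p = 0.00022 from limma) and P4HA1 (-0.28) were lower. WDR77 of the methylosome, which acts with CLNS1A, was lower (-0.51), while PRMT5 had 0.03. SMARCA5, the ATPase bound by RSF1, had 0.04 and did not pass. Among 9 ALG genes, ALG9 was higher by 0.39, more than ALG8, and ALG6 (-0.63) and ALG12 (-0.91) were lower. Of 4 Ragulator genes LAMTOR5 was lower (-0.53), and of 32 complex I genes 3 were higher, NDUFV2 (1.12, adjusted p = 0.0029 from limma), NDUFB7 (0.42) and NDUFS5 (0.26), and 1 was lower, NDUFS6 (-1.04).

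**Figure D4:**
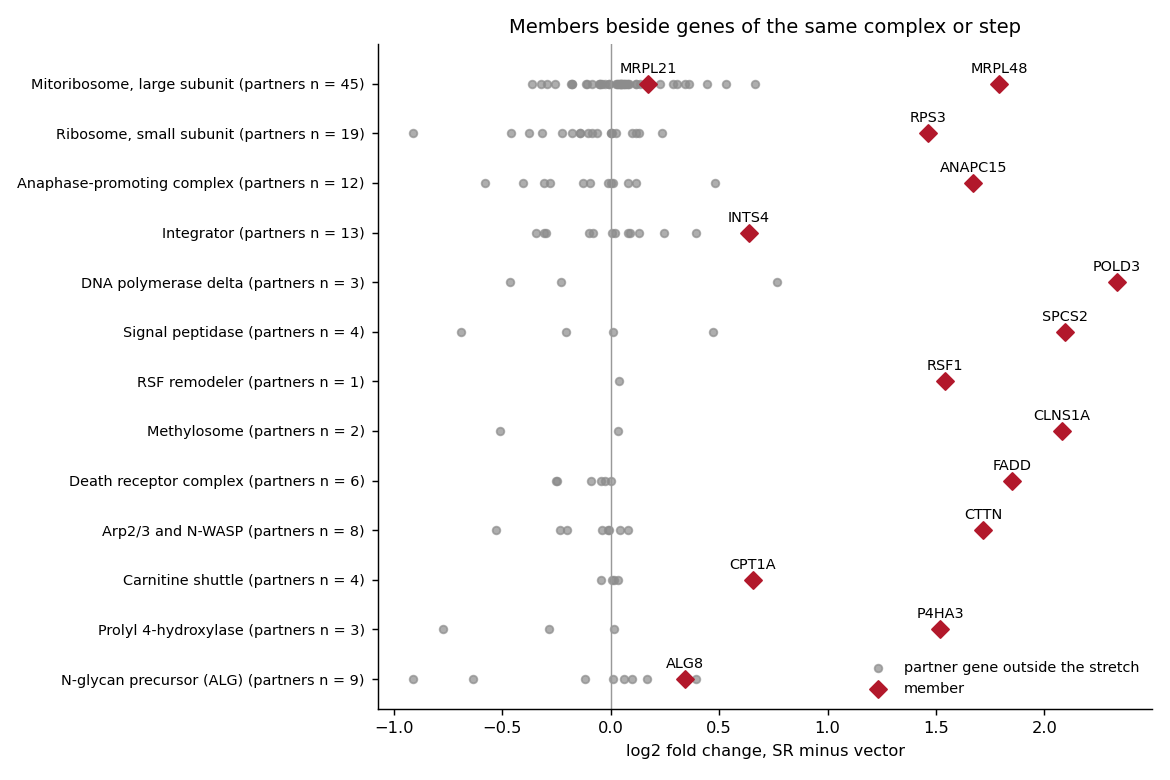
Each row is a complex or step, with its log2 fold changes, SR minus vector, on the x axis. Diamonds are members of the stretch and gray points are partner genes outside it, which stay between -0.91 and 0.77 in these rows while 10 of the 14 members shown exceed 1. Because the stretch was chosen on this contrast, the gap is a description. The point of INTS14 (0.62) lies under the diamond of INTS4 (0.64).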

How the data were processed

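Each of the 6 arrays was deposited by the authors as log2 signal per feature, the output of RMA (background correction, normalization across arrays, probe summary). Affymetrix Expression Console is the software in the submitters' processing notes. Its version and the array's genome build were not given in the sources used here. Array medians lay between 4.344 and 4.398. Of 70523 features, 23781 had 1 gene symbol, brought up to date from RefSeq (GRCh38.p14), whose gene table served only for names, gene type and gene order. The brightest feature per gene was kept. One further gene in the stretch is not reported here, and 11 genes had no feature with their symbol alone.

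All 22411 genes were fitted with limma version 3.58.1 in R version 4.3.3, SR minus vector, with Benjamini-Hochberg adjustment over all of them. The procedure was tested on simulated data, drawn as independent normal values. These lacked the identical values within a group that 6147 of the 22411 genes have, so the simulation does not cover such genes. Members, lists and sequences were chosen with earlier results of these data known. Per-array values were given for CPT1A, RAB30, the 10 largest bright increases, bright members under 0.3 and members of listed complexes. Other members and bordering genes were named more briefly, and partner genes past the threshold were named by smallest p, up to 4 per list. Partners that did not pass were named in the shortest lists. In 26 members the 3 arrays of a group had identical values. Some bright members with small changes also had 1 value repeated in both groups, such as PRCP (10.4441), MRPL21 (10.1284), WNT11 (5.6912) and IGHMBP2 (6.3568). The cause of these repeats, and their part in the small changes, was not tested. The alternatives were other normalization, centering, filters, features, variance models, array weights, the replicate block, the methods' t-test, a fold threshold and each array left out. Precision is limited by 3 arrays per group. The labels name no independent lines within a group, so standard errors and p-values describe the spread between arrays. A difference between the vector and SR lines cannot be told apart from an effect of SR.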

Additional observations from a re-analysis of the deposited data

How the results depend on the processing

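No called member changed sign under the 9 other normalizations, feature choices and left-out arrays tried, and the largest shift was in P4HA3 (0.76). The count of 58 higher members lay between 50 and 58 without each array and was 49 with the replicate block and 40 at 2-fold. The single lower member, FGF19, was lost (0) after quantile normalization, centering, a level filter, a 2-fold threshold, or, chosen after the data were seen, without genes of identical values, and 1 to 2 were lower without each array. The members' median of 0.34 was 0.33 after quantile normalization, 1.43 among bright members and 0.76 without genes of identical values, both because genes were left out, and 0.33 to 0.38 without each array. Partners higher numbered 9 with the block, 1 at 2-fold and 8 to 16 without each array, and partners lower numbered 1 at 2-fold. The count of all genes past the threshold was 4110, and it was 2450 with the replicate block and 515 at 2-fold. Deviations from the group means correlated at 0.118, -0.217 and -0.195 between arrays of the same number, so the numbers gave no sign of pairing. Between arrays of different number the values ran from -0.198 to 0.306 (vector 3 with SR 2), and their cause was not tested. The causes were otherwise not tested.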
